A study of Mus musculus with 4 samples.

Results

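The genes described here encode the folding machinery of the endoplasmic reticulum (ER) and the unfolded protein response (UPR), 39 genes chosen by symbol and role. All 39 were found among the 17655 genes of the deposited table. They comprise 12 chaperones and cochaperones, 4 disulfide enzymes, 4 sensors and transcription factors, 11 genes of ER-associated degradation and 8 genes of protein translocation into the ER. A level of at least 1 FPKM (fragments per kilobase of transcript length, scaled to the mapped fragments of the library, a measure that allows levels to be compared between genes) in at least 1 library was reached by 38 of them. The exception was Derl3, listed at 0 in all 4 libraries.

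RNA came from RAW264.7 cells, a mouse macrophage line, in 4 libraries of 1 culture condition each. All cells were grown in high-glucose medium with serum, made permeable with digitonin and incubated for 24 h. One library received Ultrapure H2O (water), and one the H2O of a mock fOS extraction (mock extraction). The third received 10 µM ManGn in H2O, the synthetic Manβ1-4GlcNAc disaccharide, and the fourth 10 µM of the pool of free oligosaccharides (fOS) from Trex1-/- cells in H2O. ManGn was compared with water, its solvent, and fOS with the mock extraction, which went through the same steps. Each condition has 1 library, so differences lack a replicate check and carry no p-value. In a bulk library, fewer cells of a type and less RNA per cell cannot be told apart.

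The ER folds and glycosylates proteins bound for the membrane, the lysosome and secretion. BiP, the product of Hspa5, holds unfolded chains and also keeps the sensors IRE1 (Ern1), PERK (Eif2ak3) and ATF6 silent. When unfolded chains accumulate, IRE1 splices Xbp1 mRNA, ATF6 is cut into an active factor, and PERK slows translation and raises ATF4. XBP1 and ATF6 then switch on chaperone and degradation genes through the ER stress response element (ERSE), a promoter motif that also binds NF-Y. Macrophages use the same sensors while they secrete cytokines. The values below are total mRNA per gene and do not show Xbp1 splicing, cleavage of ATF6 or phosphorylation of PERK.

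The libraries bore out the macrophage label. Of 11 macrophage markers, 10 were in the table and all 10 passed 1 FPKM, with a summed level of 8700 to 9679 FPKM per library. The epithelial and fibroblast markers were summed at no more than 0.16 FPKM and the T cell markers at no more than 2.76. Of the B and plasma cell markers, only Sdc1 passed 1 FPKM (7.05 in water, 8.14 in the mock extraction, 13.7 under ManGn and 23.8 under fOS), while the plasma cell gene Mzb1 stayed at or under 0.22. Low FPKM values, which step by whole reads, put the depth at 9748000 reads in water, 9742000 in the mock extraction, 9774000 under ManGn and 10375000 under fOS. On that estimate the 30 expressed members with a known transcript length carried between 247 and 46653 reads in each library. Counting error was therefore small, and the widest exact 95% interval of a ratio had an upper bound 1.38 times its lower bound. Such intervals leave out all variation between cultures.

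The promoters come first, since the ERSE is where the UPR factors bind. The window searched ran from 250 bases before to 50 bases after the RefSeq start site (GRCm38.p6), on both strands, and 33 of the 39 genes had one. Hyou1, Manf, Atf6, Derl1, Sec61a1 and Ssr2 are named only. The ERSE, written as CCAAT, 9 bases of any kind and CCACG, was found exactly in 9 of the 33 members (27.3%), against 0.137% of the 27025 genes with a promoter in the same table. The 9 were the chaperones Hspa5, Hsp90b1, Calr, Canx, Creld2 and Dnajc3, the disulfide enzyme Pdia6 and the degradation genes Syvn1 and Derl3. ERSE-II, written as ATTGG, 1 base of any kind and CCACG, was in Dnajb11 and Herpud1, 6.06% of the members against 0.0444% of all genes. The core of the UPR element, TGACGTGG, was in Vcp alone among the members (0.714% of all genes), and the cyclic AMP element TGACGTCA in none of them (2.03% of all genes). The arms of the ERSE alone were common, CCACG in 26 members (78.8%, against 35.5% of all genes) and CCAAT in 26 (78.8%, against 41.1%). Among genes with at least 1 FPKM in 1 library, 52.6% held CCACG, 43.6% CCAAT and 3.85% the cyclic AMP element. A match is a description of letters and not evidence of binding. The members were chosen as genes of the UPR, so a larger share with its motifs than among all genes is not an independent result.

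The ERSE matches are aligned here along the motif, with 10 flanking bases on each side and the fixed letters of the motif in capitals, so that the constant arms and the free spacer can be compared.
Hspa5: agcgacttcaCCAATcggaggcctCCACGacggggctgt
Hsp90b1 distal: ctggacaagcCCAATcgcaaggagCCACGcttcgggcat
Hsp90b1 proximal: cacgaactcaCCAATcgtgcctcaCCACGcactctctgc
Calr: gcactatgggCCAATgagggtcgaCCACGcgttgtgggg
Canx: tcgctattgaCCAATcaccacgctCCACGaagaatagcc
Creld2: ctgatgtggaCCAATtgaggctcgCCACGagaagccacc
Dnajc3: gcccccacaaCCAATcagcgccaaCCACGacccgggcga
Pdia6: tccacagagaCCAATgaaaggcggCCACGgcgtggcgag
Syvn1: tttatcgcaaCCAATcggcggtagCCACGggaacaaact
Derl3: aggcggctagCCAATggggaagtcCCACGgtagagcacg
In GRCm38.p6 they lie at chr2:34772015-34772053 (+, Hspa5), chr10:86705628-86705666 (-) and chr10:86705523-86705561 (+) for the Hsp90b1 pair, chr8:84847065-84847103 (+, Calr), chr11:50325790-50325828 (-, Canx), chr15:88819510-88819548 (-, Creld2), chr14:118937817-118937855 (+, Dnajc3), chr12:17266481-17266519 (+, Pdia6), chr19:6046522-6046560 (+, Syvn1) and chr10:75893232-75893270 (-, Derl3), the strand being that of the letters printed.

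Counted from the start site as 0, the motif of Hspa5 runs from -65 to -47 and that of Syvn1 from -44 to -26, while the distal motif of Hsp90b1 begins at -212. The 250 bases before the start of Hspa5 (chr2:34771840-34772089, + strand), the gene most often used to follow the UPR, read as follows with the ERSE in capitals.
Hspa5: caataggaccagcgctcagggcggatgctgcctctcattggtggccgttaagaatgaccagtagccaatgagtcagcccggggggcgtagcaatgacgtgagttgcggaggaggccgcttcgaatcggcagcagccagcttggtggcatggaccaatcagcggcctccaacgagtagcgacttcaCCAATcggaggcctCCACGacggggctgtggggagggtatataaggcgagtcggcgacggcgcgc
Herpud1, whose levels part from those of the chaperones below, carried an ERSE-II from -52 to -42 and, from -112 to -105, the letters TTGCATCA, a form of the amino acid response element that binds ATF4. That form was in 1.03% of all genes and in no other member. The same stretch, on the other strand and 1 base longer, also met the wider pattern TGATGNAAN, which 4.50% of all genes held. Both motifs are in capitals in its 250 bases (chr8:94386179-94386428, + strand).
Herpud1: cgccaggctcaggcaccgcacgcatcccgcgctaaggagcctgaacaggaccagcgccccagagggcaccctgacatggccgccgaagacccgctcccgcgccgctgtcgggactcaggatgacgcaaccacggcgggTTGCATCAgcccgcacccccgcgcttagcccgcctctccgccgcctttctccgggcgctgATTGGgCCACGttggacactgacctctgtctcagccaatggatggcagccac
The ERSE-II of Dnajb11 lies from 7 to 17, just after the start (chr16:22857847-22857867, + strand), and is set beside that of Herpud1 (chr8:94386372-94386392, + strand) with 5 flanking bases.
Dnajb11: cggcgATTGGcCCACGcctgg
Herpud1: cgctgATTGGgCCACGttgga

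**Figure D1:**
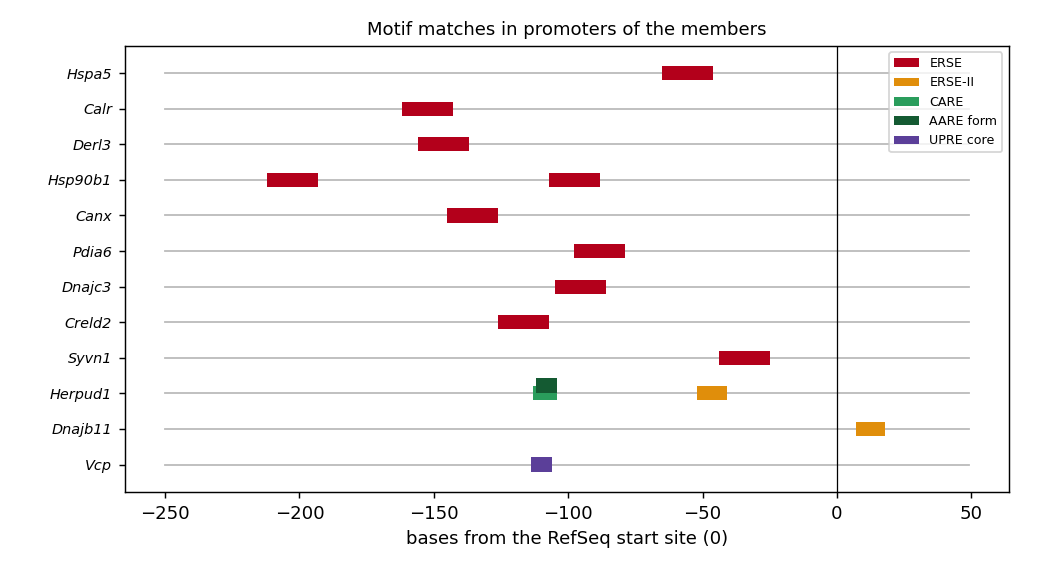
Exact motif matches in the promoter window of the 12 members that hold one. The horizontal axis gives bases from the RefSeq start site (0), each grey line is a searched window, and bars mark ERSE (red), ERSE-II (orange), the CARE and AARE forms of the ATF4 element (green) and the core of the UPR element (purple). Most matches lie before the start, and that of Dnajb11 lies after it.

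Of the 12 chaperones, 10 had their highest level of the 4 libraries with ManGn, as 17.5% of all genes did, and 9 had their lowest with the mock extraction, as 13.0% of all genes did. The exceptions to the first count were Uggt1 and Dnajb9, both highest with water. Together the 12 chaperone genes made up 0.468% of the summed FPKM of all genes in water, 0.362% in the mock extraction, 0.821% under ManGn and 0.626% under fOS. This sum is mostly that of a few abundant mRNAs, since Hspa5, Hsp90b1, Calr and Canx were each at 197 FPKM or more in all 4 libraries.

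BiP mRNA (Hspa5, Entrez Gene 14828) was at 574 FPKM in water, 258 in the mock extraction, 852 under ManGn and 517 under fOS. The mock extraction was lowest and ManGn highest. The log2 ratio, here and below that of FPKM plus 0.1, was 0.57 with ManGn against water and 1.0 with fOS against the mock extraction. Hsp90b1 (22027), which encodes GRP94, the ER form of HSP90, was at 633 FPKM in water, 443 in the mock extraction, 1117 under ManGn and 660 under fOS. Its order of libraries differed from that of Hspa5 only in that fOS stood just above water. The log2 ratio of Hsp90b1 was 0.82 with ManGn and 0.57 with fOS, each over its own control. Hyou1 (12282), a large relative of HSP70 that exchanges the nucleotide of BiP, was at 83.2 FPKM in water, 47.5 in the mock extraction, 118 under ManGn and 73.6 under fOS. It repeated the order of Hspa5.

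The lectin chaperones calreticulin and calnexin bind glycoproteins that carry a single glucose. Calr (12317) was at 722 FPKM in water, 618 in the mock extraction, 1174 under ManGn and 1173 under fOS, so that both ligand libraries lay above both controls at the same level. Canx (12330), the membrane-bound partner, was at 226 FPKM in water, 197 in the mock extraction, 260 under ManGn and 250 under fOS, the same order over a narrower range. Uggt1 (320011), the glucosyltransferase that returns misfolded glycoproteins to these lectins, was at 28.4 FPKM in water, 25.2 in the mock extraction, 23.7 under ManGn and 23.5 under fOS. Of the 3 genes of this cycle, only Calr passed 1.5-fold over a control. Of all genes, 20.8% were that much higher with ManGn over water and 9.43% with fOS over the mock extraction.

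Among the cochaperones, Creld2 (76737), an ER stress-inducible protein with disulfide isomerase activity, had the largest ratio of any member for ManGn over water. Over the mock extraction Hspa5 (1.72 on the log2 scale) and Pdia4 (1.51) lay above Creld2 (1.46). Creld2 was at 31.6 FPKM in water, 30.2 in the mock extraction, 83.5 under ManGn and 56.4 under fOS, and the controls nearly coincided. From 421 and 1114 estimated reads its ratio of ManGn over water was 2.64 (exact 95% interval 2.36 to 2.96, counting error only). Dnajb11 (67838), the cochaperone ERdj3 that brings clients to BiP, was at 57.1 FPKM in water, 64.7 in the mock extraction, 127 under ManGn and 109 under fOS. It too had close controls and both ligands above them, with log2 ratios of 1.15 for ManGn and 0.75 for fOS. Dnajc3 (100037258), which encodes the cochaperone p58IPK, was at 18.8 FPKM in water, 16.6 in the mock extraction, 29.1 under ManGn and 25.4 under fOS.

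Manf (74840), a secreted survival factor that is held in the ER by BiP, was at 80.3 FPKM in water, 42.5 in the mock extraction, 117 under ManGn and 87.1 under fOS. The log2 ratio of Manf was 0.55 with ManGn and 1.03 with fOS, and the control libraries themselves differed by -0.92 (mock extraction over water). Sdf2l1 (64136), a partner of ERdj3, was at 56.1 FPKM in water, 43.5 in the mock extraction, 94.5 under ManGn and 51.9 under fOS, and only ManGn stood apart. Dnajb9 (27362), which encodes ERdj4, a cochaperone that represses IRE1 and a known XBP1 target, did not share the pattern. It was highest with water (17.3 FPKM) and lay at 13.6 in the mock extraction, 13.9 under ManGn and 11.8 under fOS.

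**Figure D2:**
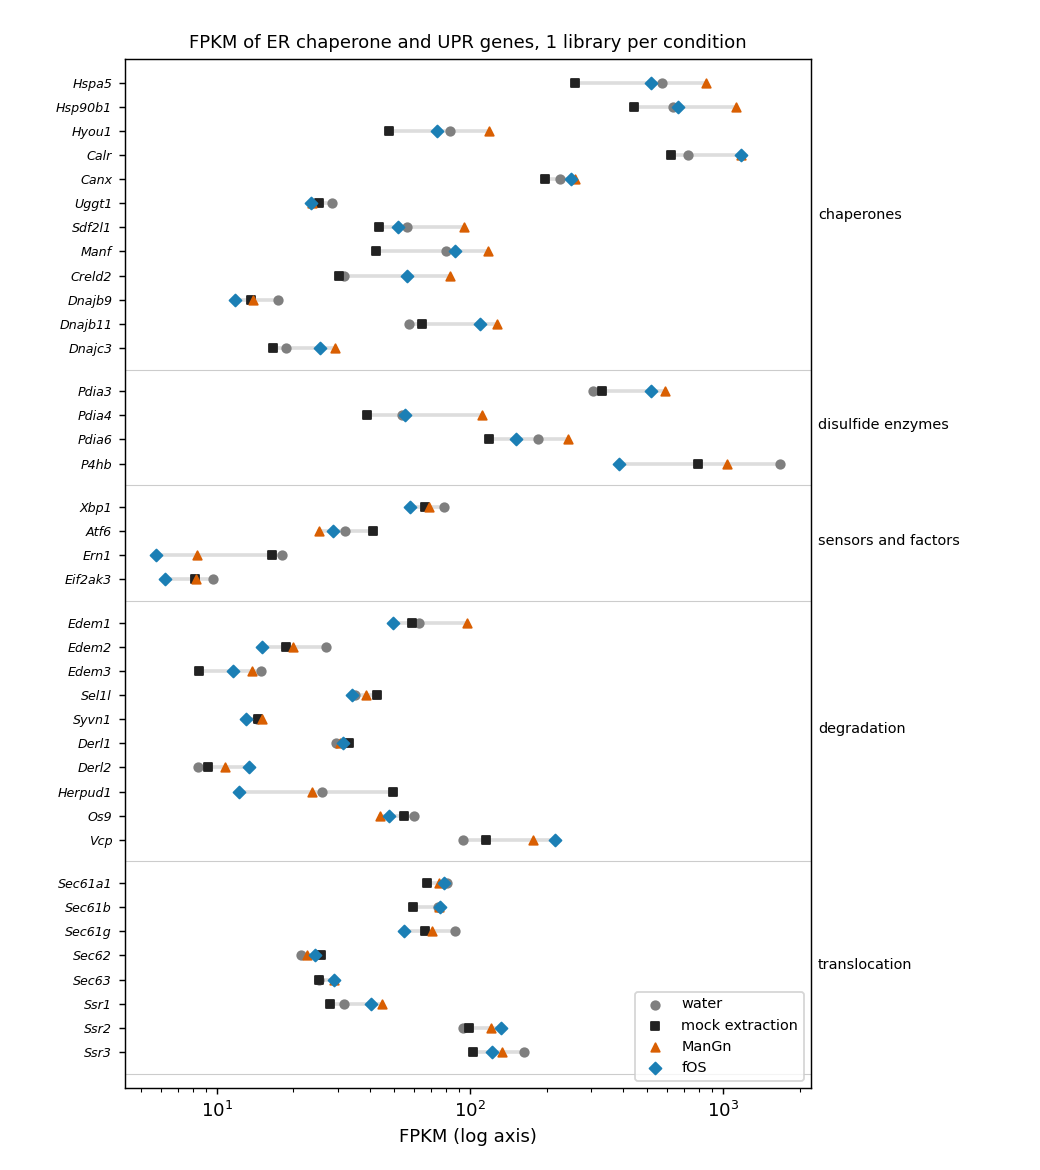
FPKM (log axis) of the 38 expressed members in the 4 libraries, 1 point per library, grouped by role. Grey bars join the lowest and the highest library of each gene. The ManGn library (orange triangles) is the rightmost point for 10 of 12 chaperones and 3 of 4 disulfide enzymes, and the mock extraction (black squares) the leftmost for 9 chaperones.

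Of the enzymes that form and rearrange disulfides, 3 were highest with ManGn (17.5% of all genes) and 1 with water (32.6%). Pdia3 (14827), the ERp57 isomerase that works with calnexin and calreticulin, was at 306 FPKM in water, 330 in the mock extraction, 585 under ManGn and 518 under fOS. Both ligand libraries lay above both controls, with log2 ratios of 0.93 for ManGn and 0.65 for fOS. Pdia4 (12304), or ERp72, was at 53.6 FPKM in water, 39.1 in the mock extraction, 111 under ManGn and 55.1 under fOS, and was separated from the rest only with ManGn. Pdia6 (71853), or P5, an isomerase bound to BiP, was at 184 FPKM in water, 118 in the mock extraction, 243 under ManGn and 152 under fOS.

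P4hb (18453) encodes protein disulfide isomerase itself, which is also the beta subunit of collagen prolyl 4-hydroxylase. It was the most abundant member with water, at 1673 FPKM, and lay at 794 in the mock extraction, 1034 under ManGn and 387 under fOS. Water was highest and fOS lowest. From estimated reads the ratio of P4hb was 0.618 for ManGn over water (exact 95% interval 0.609 to 0.627) and 0.487 for fOS over the mock extraction (0.476 to 0.498). Ero1l (named by the rule for other folding genes), the oxidase that recharges protein disulfide isomerase and a gene known to respond to hypoxia, had the same order of libraries, at 525 FPKM in water, 83.0 in the mock extraction, 171 under ManGn and 26.9 under fOS.

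Of the 3 sensors and the factor Xbp1, only Ern1 differed by 1.5-fold or more with a ligand over its own control. With ManGn over water 20.8% of all genes were that much higher and 17.6% lower. With fOS over the mock extraction the shares were 9.43% and 14.7%. Ern1 (78943), which encodes IRE1α, was at 18.1 FPKM in water, 16.4 in the mock extraction, 8.33 under ManGn and 5.73 under fOS. The ligand libraries lay below both controls and the controls lay close together. From 1226 and 566 estimated reads the ratio of Ern1 was 0.460 for ManGn over water (exact 95% interval 0.416 to 0.509), and from 1111 and 413 reads it was 0.349 for fOS over the mock extraction (0.311 to 0.391). Against the other control the log2 ratios of Ern1 were -0.97 with ManGn and -1.64 with fOS.

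Eif2ak3 (13666), the PERK kinase, was at 9.59 FPKM in water, 8.18 in the mock extraction, 8.26 under ManGn and 6.21 under fOS. Atf6 (226641) was highest with the mock extraction (41.4 FPKM) and lay at 32 with water, 25.2 with ManGn and 28.6 with fOS. Xbp1 (22433) stayed within a narrow range, at 78.7 FPKM in water, 66.3 in the mock extraction, 68.9 under ManGn and 57.6 under fOS. The log2 ratios of Xbp1, -0.19 with ManGn and -0.20 with fOS, were under 1.5-fold. The other control gave other values. With ManGn over the mock extraction Xbp1 was at 0.05, Eif2ak3 at 0.01 and Atf6 at -0.71. With fOS over water Xbp1 was at -0.45, Eif2ak3 at -0.62 and Atf6 at -0.16.

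The degradation genes had no common direction. These proteins recognise misfolded glycoproteins, pull them back through the ER membrane and pass them to the proteasome. Edem1 (192193), a mannosidase-like lectin that marks glycoproteins for disposal, was at 62.6 FPKM in water, 59.0 in the mock extraction, 96.9 under ManGn and 49.3 under fOS. It stood apart only with ManGn, and its log2 ratios had opposite signs, 0.63 with ManGn against water and -0.26 with fOS against the mock extraction, a difference that could not be tested. The related Edem2 (108687) and Edem3 (66967) were highest with water, at 26.9 and 14.9 FPKM, and over the mock extraction fOS gave log2 ratios of -0.31 for Edem2 and 0.45 for Edem3. The ratio of Edem3 from estimated reads was 1.37 (exact 95% interval 1.22 to 1.53), and over water all 3 Edem genes were lower with fOS.

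Vcp (269523), the cytosolic ATPase p97 that extracts substrates from the membrane, was at 93.2 FPKM in water, 115 in the mock extraction, 178 under ManGn and 216 under fOS. Both ligands stood above both controls, with log2 ratios of 0.93 for ManGn and 0.91 for fOS over their own controls. Herpud1 (64209), a membrane protein of the retrotranslocation complex that ATF6, XBP1 and ATF4 are known to induce, was at 26 FPKM in water, 49.5 in the mock extraction, 23.7 under ManGn and 12.2 under fOS. The mock extraction stood above the other libraries and fOS below them. From 942 and 247 estimated reads the ratio of Herpud1 was 0.246 for fOS over the mock extraction (exact 95% interval 0.213 to 0.284), and from 495 and 453 reads it was 0.913 for ManGn over water (0.802 to 1.04).

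The core of the ubiquitin ligase complex varied little. Syvn1 (74126), the HRD1 ligase, ranged from 13 to 15.0 FPKM, its adaptor Sel1l (20338) from 34.2 to 42.7, and the channel protein Derl1 (67819) from 29.4 to 33.2. Derl2 (116891) was highest with fOS at 13.3 FPKM and lowest with water at 8.39. Os9 (216440), a lectin that hands glycoproteins to the ligase, was highest with water at 59.9 FPKM and lowest with ManGn at 44.1. None of these 5 genes passed 1.5-fold with either ligand over its own control. Of all genes, 20.8% were that much higher and 17.6% lower with ManGn, and 9.43% and 14.7% with fOS. Over the other control, Derl2 with fOS (log2 ratio 0.66) did pass 1.5-fold.

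The genes of translocation thread new chains into the ER. None of the 8 passed 1.5-fold with either ligand over its own control. Of all genes, 20.8% were that much higher and 17.6% lower with ManGn, and 9.43% and 14.7% with fOS. Over the other control, Ssr1 with ManGn (log2 ratio 0.68) and Sec61g with fOS (-0.67) did pass 1.5-fold. The channel subunits Sec61a1 (53421) and Sec61b (66212) ranged from 67.4 to 81.1 FPKM and from 59.4 to 75.8, with the mock extraction lowest for both. Sec61g (20335), the small gamma subunit, was highest with water at 86.8 FPKM and lowest with fOS at 54.6. The channel partners Sec62 (69276) and Sec63 (140740) ranged from 21.4 to 25.6 FPKM and from 25.3 to 28.9. Of the translocon-associated proteins that aid insertion, Ssr1 (107513) was at 31.8 FPKM in water, 28.0 in the mock extraction, 44.8 under ManGn and 40.5 under fOS. Ssr2 (66256) was likewise above both controls with both ligands, at 120 FPKM with ManGn and 132 with fOS against 93.4 with water and 99.1 with the mock extraction. Ssr3 (67437) was highest with water at 162 FPKM and lowest with the mock extraction at 102.

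**Figure D3:**
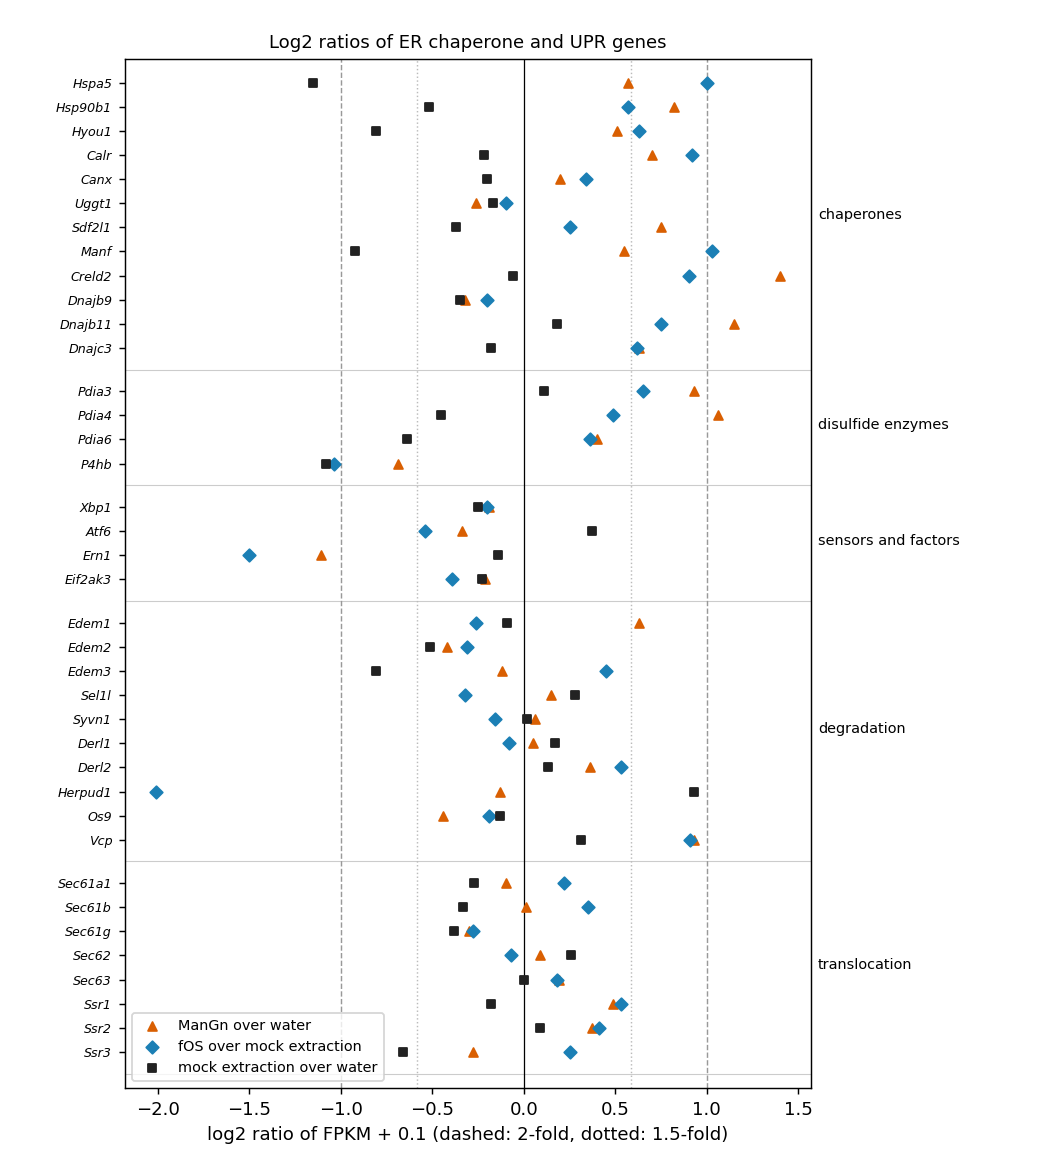
Log2 ratios (FPKM plus 0.1) of the 38 expressed members for ManGn over water, fOS over the mock extraction, and the mock extraction over water, with dashed lines at 2-fold and dotted lines at 1.5-fold. Chaperones lie to the right of 0 with both ligands except Uggt1 and Dnajb9, Ern1 lies at -1.11 and -1.50, and Herpud1 lies at -2.01 with fOS.

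Counted at 2-fold with at least 1 FPKM in 1 of the libraries compared, few members differed, between 0 and 3 in each direction. The share of all genes that met the same rule is given beside each count. With ManGn over water 3 of 38 members were higher (Creld2, Dnajb11 and Pdia4), where 9.44% of the 11183 genes tested were, and 1 was lower (Ern1), where 7.37% were. With fOS over the mock extraction 2 were higher (Hspa5 and Manf, 2.67% of all genes) and 3 lower (Herpud1, Ern1 and P4hb, 6.41%). Between the controls, the mock extraction was higher than water in 0 members (9.24%) and lower in 2 (Hspa5 and P4hb, 6.69%).

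Counted at 1.5-fold, with ManGn over water 10 of 38 members were higher (20.8% of all genes). Of these, 6 were chaperones (Hsp90b1, Calr, Sdf2l1, Creld2, Dnajb11 and Dnajc3), 2 disulfide enzymes (Pdia3 and Pdia4) and 2 degradation genes (Edem1 and Vcp). P4hb and Ern1 were lower (17.6%). With fOS over the mock extraction 9 were at least 1.5-fold higher (9.43% of all genes). Of these, 7 were chaperones (Hspa5, Hyou1, Calr, Manf, Creld2, Dnajb11 and Dnajc3), beside Pdia3 and Vcp. The same 3 were lower as at 2-fold (14.7%). There were 6 members, namely Calr, Creld2, Dnajb11, Dnajc3, Pdia3 and Vcp, at least 1.5-fold higher with both ligands over their own controls, comparisons that share no library (5.25% of all genes). P4hb and Ern1 were lower with both (6.59%). Between the controls, 1 member was at least 1.5-fold higher with the mock extraction (Herpud1, 21.0%), and 7 were lower (Hspa5, Hyou1, Manf, Pdia6, P4hb, Edem3 and Ssr3, 14.9%).

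For ManGn over water the median log2 ratio was 0.60 over the 12 chaperones and 0.67 over the 4 disulfide enzymes. It was -0.28 over the 4 sensors and factors, 0.05 over the 10 degradation genes and 0.05 over the 8 translocation genes. Over all genes tested it was 0.05. With fOS over the mock extraction these medians were 0.62, 0.43, -0.46, -0.18 and 0.23 in the same order, against -0.02 over all genes. The quartiles of all genes were -0.40 and 0.50 for the first comparison and -0.38 and 0.28 for the second, which describe single genes and not medians of lists. Between the controls the medians were -0.29, -0.55, -0.18, 0.08 and -0.22, against 0.07 over all genes.

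**Figure D4:**
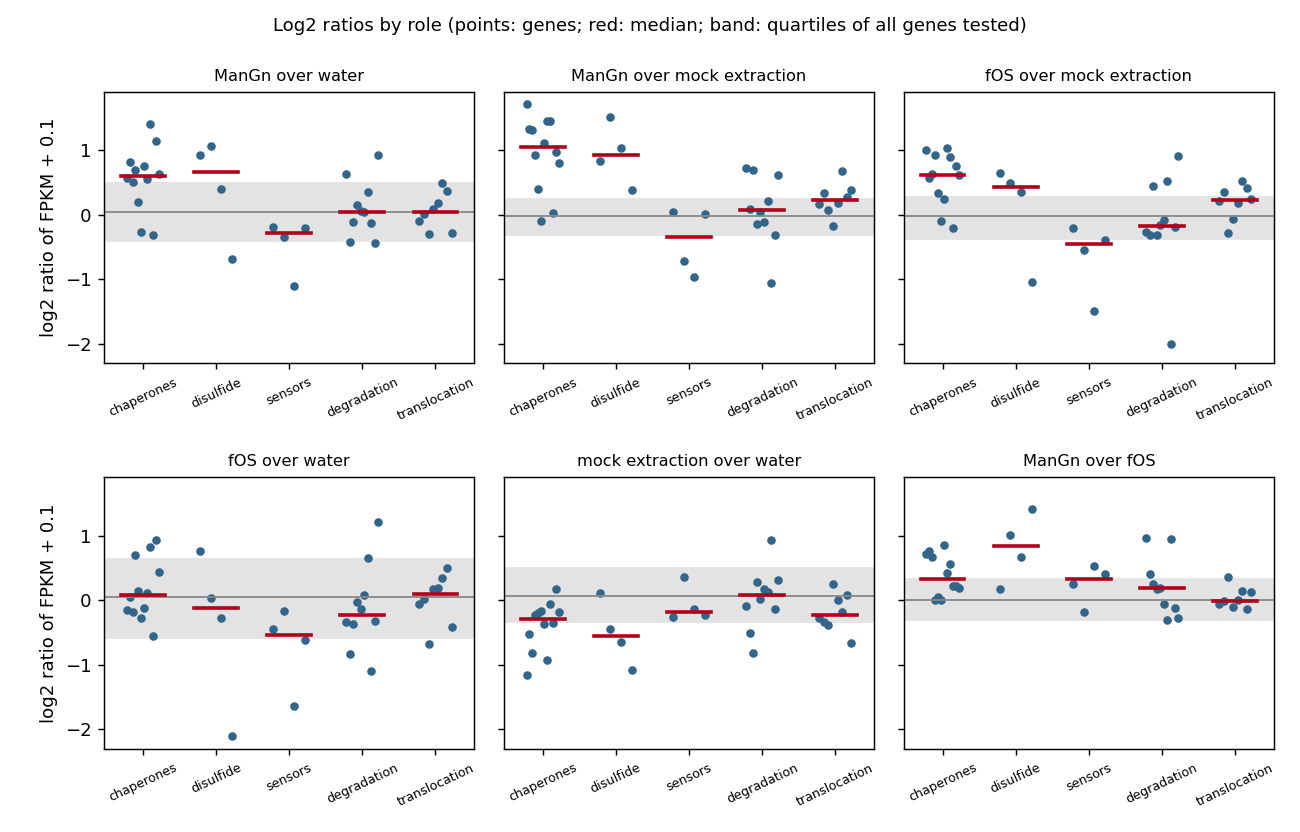
Log2 ratios (FPKM plus 0.1) by role in 6 comparisons. Points are genes, red lines the median of each role, the grey line the median of all 11183 genes tested and the band their quartiles. Chaperone medians are 0.60 and 1.05 for ManGn over water and over the mock extraction, and 0.62 and 0.09 for fOS over the mock extraction and over water.

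How far each ligand stood above its control depended on which control was used, because the mock extraction held less chaperone mRNA than water. Over the mock extraction, the chaperone median with ManGn was 1.05, and 8 members were at least 2-fold higher (Hspa5, Hsp90b1, Hyou1, Sdf2l1, Manf, Creld2, Pdia4 and Pdia6, where 3.51% of all genes were) and 1 lower (Herpud1, 3.47%). With fOS over water, the chaperone median was 0.09, that of the disulfide enzymes -0.12, Vcp alone was at least 2-fold higher (14.1% of all genes) and P4hb, Ern1 and Herpud1 were lower (14.3%). For Hspa5 and Hyou1 the sign turned, to -0.15 and -0.18 with fOS over water, and P4hb with ManGn turned from -0.69 over water to 0.38 over the mock extraction. These comparisons share libraries with those above and are not further evidence for them.

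Against both controls at once, 10 members were at least 1.5-fold higher with ManGn, namely Hsp90b1, Calr, Sdf2l1, Creld2, Dnajb11, Dnajc3, Pdia3, Pdia4, Edem1 and Vcp, where 4.53% of all genes were. Ern1 alone was lower than both controls with ManGn (4.34%). With fOS 5 were higher than both (Calr, Creld2, Dnajb11, Pdia3 and Vcp, 7.60%), and P4hb, Ern1 and Herpud1 were lower than both (10.4%).

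**Figure D5:**
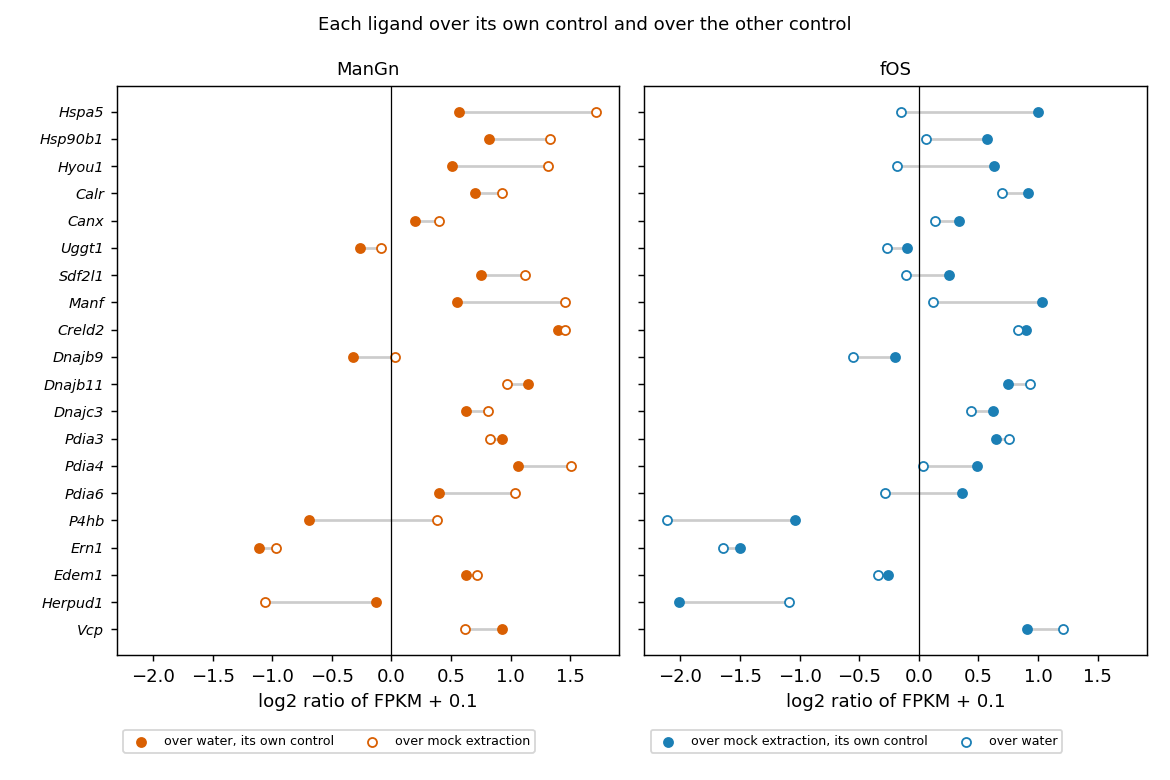
Log2 ratio (FPKM plus 0.1) of ManGn (left) and fOS (right) for the chaperones, the disulfide enzymes and 4 other members. Filled points give the ratio over the ligand's own control and open points that over the other control. Creld2, Dnajb11, Pdia3 and Ern1 change less with the control than Hspa5, Manf, Hyou1, P4hb and Herpud1 do. With ManGn, Dnajb11 is at 1.15 and 0.97 and Hspa5 at 0.57 and 1.72.

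The order of the 4 libraries can be read without choosing a control. ManGn was the highest library for 17 of 38 members (17.5% of all genes), water for 12 (32.6%), the mock extraction for 5 (18.7%) and fOS for 4 (31.0%). The mock extraction was lowest for 16 members (13.0% of all genes), fOS for 12 (30.4%), water for 8 (39%) and ManGn for 2 (16.4%). The 12 members lowest with fOS included 3 of the 4 sensors and factors and 5 of the 10 degradation genes.

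Set against each other at the same concentration and time, ManGn stood at or above fOS in the 12 chaperones and the 4 disulfide enzymes. Their median log2 ratios were 0.33 and 0.85, while 49.2% of all genes lay above 0. The median was 0.33 over the sensors and factors as well, 0.19 over the degradation genes and -0.01 over the translocation genes. For Calr and Uggt1 the exact 95% interval of the ratio (0.984 to 1.02 and 0.949 to 1.07) held 1, so these were level within counting error. At 2-fold Pdia4 and P4hb were higher with ManGn than with fOS (6.33% of all genes), and 0 members were lower (2.48%). At 1.5-fold 9 members were higher with ManGn (13.5% of all genes), namely Hspa5, Hsp90b1, Hyou1, Sdf2l1, Pdia4, Pdia6, P4hb, Edem1 and Herpud1, and 0 were lower (9.76%). Calr, at 1174 and 1173 FPKM, and Canx, Dnajc3 and Pdia3, with log2 ratios of 0.06, 0.19 and 0.18, were nearly level between the ligands. The pool is a mixture of oligosaccharides, so the equal labelled concentration is not an equal amount of the disaccharide.

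The 10 expressed members with an ERSE or ERSE-II had median log2 ratios of 0.60 with ManGn against water and 0.59 with fOS against the mock extraction, and the 22 with a promoter and neither motif had -0.06 and -0.09. For fOS over water these medians were 0.10 and -0.30, and between the controls -0.19 and -0.21. Most of the genes with a motif are chaperones, so motif and role cannot be told apart here. Within the motif group Syvn1 had log2 ratios of 0.06 and -0.16, and Herpud1 of -0.13, within counting error, and -2.01. Outside it Pdia4, Sdf2l1 and Pdia3 stood higher with ManGn without an exact match in the window, and Derl3 held an ERSE and was listed at 0.

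The genes listed for the PERK and ATF4 arm summed to 486 FPKM in water, 1043 in the mock extraction, 412 under ManGn and 291 under fOS. The list holds the kinase genes Eif2ak1, Eif2ak2 and Eif2ak4, which do not encode PERK, so its sum is not particular to PERK. The 14 listed genes overlap the ATF4 amino acid stress genes. In the mock extraction 6 were at least 2-fold higher than in water (9.24% of all genes) and 1 was lower (6.69%). With fOS over the mock extraction 1 was higher (2.67%) and 10 were lower (6.41%). With ManGn over water 1 was higher (9.44% of all genes) and 2 were lower (7.37%), with a median log2 ratio of 0.14. Over the mock extraction, ManGn gave 0 higher (3.51%) and 7 lower (3.47%), with a median of -1.17. With fOS over water 1 was higher (14.1%) and 6 were lower (14.3%), with a median of -0.93. Atf4 was at 79.2 FPKM in water, 261 in the mock extraction, 100 under ManGn and 78.9 under fOS. Ddit3, which encodes CHOP, was at 25.8 FPKM in water, 159 in the mock extraction, 29.6 under ManGn and 8.49 under fOS. Ppp1r15a, the phosphatase subunit GADD34 that restores translation, was at 19.0, 39.3, 20.2 and 12.4 FPKM in the same order of libraries. Trib3, a pseudokinase induced by ATF4, was at 4.85, 39.1, 4.79 and 0.41 FPKM. Herpud1 was likewise highest with the mock extraction and lowest with fOS, and whether ATF4 has a part in its levels was not tested. Ddit4, which restrains the growth kinase mTORC1, did not follow it, at 16.1 FPKM in water, 4.08 in the mock extraction, 2.40 under ManGn and 0.11 under fOS.

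Other genes of the pathway, from lists that leave out the 39, did not show the chaperone pattern as groups. Among 26 other folding genes, ManGn over water gave 2 at least 2-fold higher (9.44% of all genes) and 2 lower (7.37%). The median log2 ratio was -0.13, against 0.05 over all genes tested. With fOS over the mock extraction 0 were higher (2.67%) and 1 was lower (6.41%), with a median of 0.04 against -0.02. Fkbp11, a prolyl isomerase of the secretory pathway, was at 9.49 FPKM with ManGn and between 2.94 and 3.46 in the other libraries. Sil1, which like Hyou1 exchanges the nucleotide of BiP, was at 43.0 FPKM with water and between 14.4 and 15.2 in the others.

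Of 19 other degradation genes in the table, 1 was at least 2-fold higher (9.44% of all genes) with ManGn over water and 0 were lower (7.37%). With fOS over the mock extraction 0 were higher (2.67%) and 0 lower (6.41%). The median log2 ratios were 0.14 and 0.12. The gene higher with ManGn was Vimp, a selenoprotein that recruits p97 to the ER membrane. Vimp was at 16.9 FPKM in water, 37.4 in the mock extraction, 42.8 under ManGn and 62.5 under fOS. Nploc4, a cofactor of p97, was at 11.9, 18.9, 22.7 and 25.7 FPKM in that order. Tmub1 was at 7.63 FPKM with water and between 3.88 and 4.28 in the others.

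Among 21 other translocation genes, 1 was at least 2-fold higher with ManGn over water (9.44% of all genes) and 0 were lower (7.37%). With fOS over the mock extraction 1 was higher (2.67%) and 0 were lower (6.41%). The median log2 ratios were 0.13 and 0.23. The gene higher in both comparisons was Wrb, a receptor for tail-anchored proteins. Wrb was at 1.84 FPKM in water, 3.19 in the mock extraction, 4.18 under ManGn and 8.88 under fOS. Spcs3, a subunit of the signal peptidase, and Tram1, which aids insertion at the channel, had log2 ratios of 0.82 and 0.83 with ManGn over water and of 0.56 and 0.30 with fOS over the mock extraction.

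Of 16 other sensors and factors, 13 passed 1 FPKM. Of these, 2 were at least 2-fold higher with ManGn over water (9.44% of all genes) and 0 lower (7.37%). With fOS over the mock extraction 0 were higher (2.67%) and 0 lower (6.41%). The median log2 ratios were 0.14 and -0.21. Nfyc, a subunit of the NF-Y factor that binds the CCAAT arm of the ERSE, was at 5.15 FPKM in water, 19.0 in the mock extraction, 16.2 under ManGn and 30.0 under fOS. Creb3, a membrane-bound factor related to ATF6, was at 8.79 FPKM with water and between 18.1 and 20.0 in the other libraries. Creb3l4, of the same family, was at 0.32 FPKM in water, 1.61 in the mock extraction, 0.95 under ManGn and 0.79 under fOS. It was not counted with ManGn over water, since neither of those libraries reached 1 FPKM.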

How the data were processed

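Total RNA of 4 libraries of digitonin-treated RAW264.7 cells was sequenced. Per the labels, the authors computed FPKM per gene with RSEM. Its version and the aligner, annotation and build are each not given in the sources used here. The 2 all-gene sheets deposited hold the same FPKM, which was checked, and 6 sheets with the authors' own ratios were not used. How reads shared by near-identical copies were divided is not given. Log2 ratios were computed as FPKM plus 0.1 over FPKM plus 0.1, a scale that understates differences of low genes, over genes with FPKM of at least 1 in 1 library. Genes were counted at 2-fold, with 1.5-fold as an alternative. With 1 library per condition no test was run.

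Depth was the number of reads at which FPKM times length (GENCODE M21, transcripts of 250 to 1000 bases) came closest to whole numbers; 61.5% to 67.5% of 187 to 211 values per library lay within 0.1 of one. At that depth 1 FPKM on 2000 bases is 19.5 to 20.8 reads. Ratio intervals are exact (Clopper-Pearson, 95%). The calculation was tested on simulated data. Promoters are from RefSeq (GRCm38.p6). Carboxy ends of the proteins were planned and not analysed here.

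The members and lists were chosen by symbol and role, with earlier results of these data known, and the export list after the values were seen. All members are named, and of each other list the 3 genes with the largest absolute log2 ratio with a ligand, beside Atf4, Ddit3 and Ppp1r15a. As alternatives, the pseudocount was set to 1 and to 0.01, the filter dropped or raised to 5 FPKM, and the rest were centring on the median, upper quartile scaling, 1.5-fold and the other control. Python 3.11.15, pandas 2.3.3 and scipy 1.17.1 were used.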

Additional observations from a re-analysis of the deposited data

How the results depend on the processing

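The counts of members at 2-fold were small and moved with the threshold. At 1.5-fold, with ManGn over water 10 members were higher and 2 lower in place of 3 and 1, with fOS over the mock extraction 9 were higher in place of 2, between the controls 1 was higher and 7 were lower in place of 0 and 2, and with ManGn over fOS 9 were higher in place of 2. A pseudocount of 1 left 1 member higher with fOS over the mock extraction, and scaling to the same upper quartile left 0, since Hspa5 (1.0) and Manf (1.03) lie at the threshold. The same scaling gave 4 members higher with ManGn over fOS, a comparison whose alternatives were chosen after the data were seen. With the mock extraction as control 8 members were higher with ManGn, and P4hb turned to 0.38. With water as control 1 was higher with fOS, and Hspa5 and Hyou1 turned to -0.15 and -0.18. No other ratio of at least 1.5-fold changed sign under any alternative run. The filters on low values and the pseudocounts moved 0 of 152 member ratios beyond counting error, or by over 0.1 on the log2 scale for the 8 members with no known length. Centring moved 11 and upper quartile scaling 31. The other control changed most, with 32 of 38 ratios moved for ManGn and 29 of 38 for fOS beside the signs above. That scaling moved the median of all genes by under 0.1. No paired analysis was possible because each condition has 1 library. Depth did not limit the members, but variation between cultures was not measured, so no count here has an error.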

Other observations

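The genes that carry cargo out of the ER and return escaped chaperones to it were looked at in a list of 23, chosen after the values of the chaperones were seen. Of these, 22 passed 1 FPKM. Sec24d, a cargo adaptor of the COPII coat, was at 8.16 FPKM in water, 8.17 in the mock extraction, 18 under ManGn and 15.2 under fOS, so that the controls coincided and both ligands stood above them. It was the 1 gene of the list at least 2-fold higher with ManGn over water (9.44% of all genes), and 0 were lower (7.37%). With fOS over the mock extraction 0 were higher (2.67%) and 0 lower (6.41%). Sec23b, of the same coat, was at 19.2 FPKM in water, 25.8 in the mock extraction, 32.3 under ManGn and 33.8 under fOS. Kdelr1, a receptor that returns BiP and other chaperones with a KDEL end to the ER, was highest with water at 92.7 FPKM and lowest with ManGn at 55.2. The median log2 ratio of the list was 0.20 with ManGn against water and 0.36 with fOS against the mock extraction. Over all genes tested these medians were 0.05 and -0.02.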
